A study of Ovis aries with 2 samples.

Results

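Isolated CpG sites, here CpG sites whose nearest other CpG is 300 bp or more away, were examined in the pseudoautosomal region (PAR, positions 740001 to 6918000) and in the male-specific region (MSY, positions 8600001 to 25899000) of the sheep Y-chromosome. The rule that defines them uses spacing alone and no methylation value. Of the 372890 CpG sites of the chromosome, 1283 were isolated sites of these regions, 78 in the PAR and 1205 in the MSY. They were compared with near sites, whose nearest CpG is 20 to 100 bp away, of which the PAR held 45102 and the MSY 94141. The DNA came from the lung of 1 fetus, an F1 of Churro x Friesian taken at day 100 of gestation, and was read once with PacBio HiFi and once with ONT, so there was no biological replicate and the platforms were the only repeat measurement. The tissue label could not be checked, since DNA methylation calls on 1 chromosome hold no marker genes. Positions are those of the C of each CpG on chromosome Y of ARS-UI_Ramb_v3.0, and a level is the modelled percentage of methylation at a site on PacBio and the percentage of methylated calls on ONT.

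In mammals, DNA methyltransferases act mainly on CpG, and most CpG sites outside CpG islands are methylated in somatic tissue. Methylated cytosine mutates readily to thymine, which leaves most of the genome poor in CpG and some CpG sites far from any other. Such solitary CpG sites are known to lose methylation more readily than clustered ones in late-replicating DNA of dividing cells. The PAR pairs and recombines with the X-chromosome, while most of the ruminant MSY consists of repeated ampliconic sequence that does not recombine with the X-chromosome.

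Isolated sites were less methylated in the MSY than in the PAR on both platforms. In the PAR, the mean level was 68.6% ± 21.9 (SD over 78 sites) on PacBio and 58.5% ± 18.2 on ONT. In the MSY, it was 40.4% ± 25.3 (SD over 1205 sites) on PacBio and 33.8% ± 20.96 on ONT. The PAR mean was therefore higher by 28.2 percentage points on PacBio and by 24.6 points on ONT, and the SD of this difference between the platforms, a technical repeat on the same DNA, was 2.50 points. The ONT levels of single sites ran from 14.2% to 89.4% in the PAR, with a median of 61.0%. In the MSY they ran from 0% to 85.9%, with a median of 30.3%, so the ranges of the regions overlapped. Levels below 20% on ONT were held by 2 isolated PAR sites (2.56%) and by 378 isolated MSY sites (31.4%). Levels above 80% were held by 10 PAR sites (12.8%) and by 12 MSY sites (0.996%). Among near sites, the shares below 20% were 3.19% in the PAR and 18.8% in the MSY, and the shares above 80% were 19.8% and 2.22%.

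The depth behind these values differed between the regions. The median number of valid ONT calls per isolated site was 170.5 in the PAR and 94 in the MSY, and the median number of PacBio reads was 68.5 and 40. It is not stated whether the reads were aligned to the X-chromosome too, so PAR values can include reads of the X copy, and the regions' difference and such reads cannot be told apart. Counting error alone would give an SD of 3.60 points over the PAR sites and of 4.46 points over the MSY sites on ONT, well under the spread measured. Pooled over all ONT calls, the isolated sites had 58.5% in the PAR (95% Wilson interval 57.7 to 59.4, counting error only) and 33.1% in the MSY (32.8 to 33.3).

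Averaged over sites, isolated sites were less methylated than near sites in each region, by an amount that depended on the summary. In the PAR, near sites had 73.3% ± 22.2 on PacBio and 62.8% ± 19.3 on ONT, so that isolated minus near was -4.71 and -4.36 points. In the MSY, near sites had 48.7% ± 24.6 and 40.4% ± 20.5, so that isolated minus near was -8.25 and -6.58 points. Their SD between the platforms, 0.248 points in the PAR and 1.19 points in the MSY, covers technical repeat on the same sites only, and the differences were small beside the spread among sites. They are descriptions of this chromosome with no test. With blocks of 1 Mb weighted equally, the MSY difference was -4.06 and -2.31 points. With medians in place of means, the PAR difference was -8.20 and -6.09 points, and with an isolation limit of 500 bp, which left 3 PAR sites, it turned to 17.4 and 8.68 points. The gap was wider in the MSY than in the PAR by 3.55 points on PacBio and 2.22 points on ONT. With equal blocks, this excess was 0.178 points on PacBio and turned to -1.53 points on ONT. Levels from 20% to 80% were held on ONT by 67.6% of the isolated and 79.0% of the near MSY sites, and on PacBio by 62.9% and 70.8%.

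**Figure D1:**
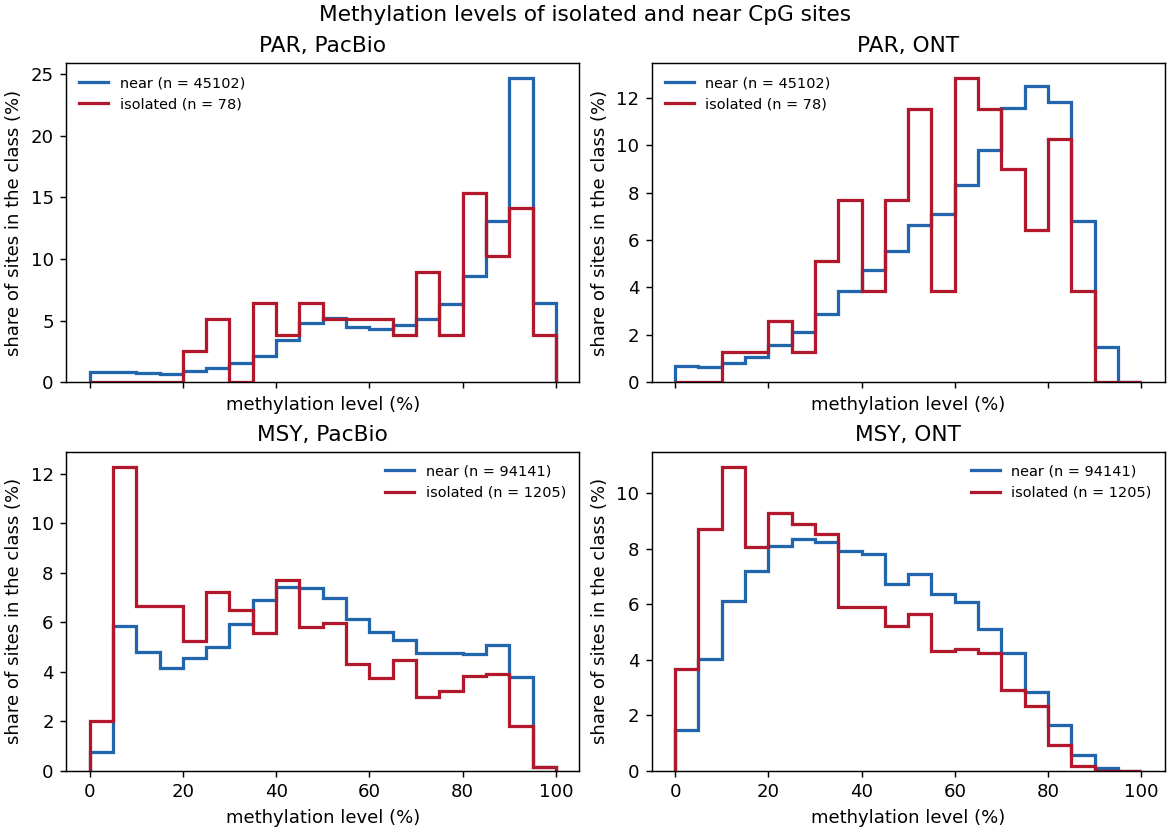
The share of sites (y axis, % of the class) is plotted against methylation level (x axis, %, in bins of 5 points) for isolated sites (red) and near sites (blue) in the PAR (top) and MSY (bottom) on PacBio (left) and ONT (right). In the MSY the isolated sites pile up at the low end, where 31.4% of them were below 20% on ONT against 18.8% of near sites.

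The step between the classes lay at short distances. In the MSY, sites whose nearest CpG was less than 20 bp away had 70.6% ± 22.3 on PacBio and 61.7% ± 19.6 on ONT. At over 100 and under 300 bp the means were 40.99% ± 24.8 and 34.0% ± 20.2. At 300 to under 500 bp, 1093 isolated sites had 40.3% ± 25.4 and 33.9% ± 21.1, and at 500 bp and over, 112 sites had 41.6% ± 24.7 and 33.5% ± 19.7. Isolated MSY sites thus stood within 1 point of sites over 100 and under 300 bp from the next CpG on both platforms. In the PAR the same held, since sites over 100 and under 300 bp away had 68.4% ± 22.3 and 58.5% ± 18.98, and the isolated sites differed from them by 0.180 and -0.043 points. Only 3 PAR sites were 500 bp or more from any CpG, and their means, 90.7% on PacBio and 71.5% on ONT, lay above those of the PAR near sites.

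**Figure D2:**
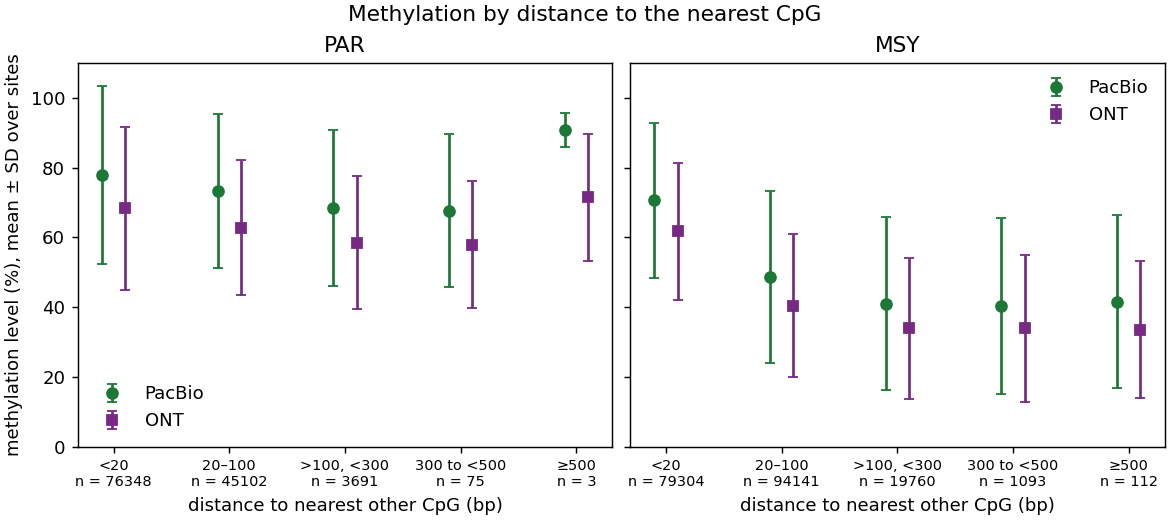
Mean methylation level (y axis, %, error bars SD over sites) is plotted against the distance to the nearest other CpG (x axis, bp, with the number of sites) for PacBio (circles) and ONT (squares) in the PAR (left) and MSY (right). The MSY means drop from 70.6% and 61.7% under 20 bp to 40.99% and 34.0% between 100 and 300 bp and stay within 1 point of these up to the most distant class.

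The free span, the distance between both neighbouring CpG sites of an isolated site, gave a different order in the MSY. The 144 MSY sites with a free span under 700 bp had 55.6% ± 27.3 on PacBio and 46.3% ± 22.5 on ONT. The 608 sites with 700 to under 1000 bp had 37.8% ± 24.4 and 31.9% ± 19.8, and the 453 sites with 1000 bp and over had 39.1% ± 24.2 and 32.5% ± 20.6. The class under 700 bp includes a group of 28 repeated sites of high methylation described below. Its mean without them was not computed, and their part in it was not tested. In the PAR the middle class was also the lowest, with 65.0% ± 23.005 and 55.3% ± 17.1 over 42 sites of 700 to under 1000 bp. The 20 PAR sites with spans under 700 bp had 73.0% ± 17.6 and 63.4% ± 19.6, and the 16 with 1000 bp and over had 72.4% ± 23.4 and 60.6% ± 18.5, and the 3 PAR classes lay within the spread of each other.

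The gap between the classes was smaller within bins of surrounding CpG density that held 20 or more sites of each class. Within a bin, the classes could still differ in density. Counting CpG sites within 1 kb to either side, the site itself included, the median was 10 for isolated and 25 for near sites of the MSY, and 19.5 and 39 in the PAR. The lower counts of isolated sites are in part fixed by the rule, which keeps the nearest 300 bp on each side free of CpG. Among sites with 11 to 20 CpG sites in that stretch, isolated MSY sites (n = 513) had 41.2% on PacBio and 34.6% on ONT and near sites 44.6% and 37.2%. In this bin the MSY gap was -3.43 and -2.59 points, while the median count was 13 for isolated and 16 for near sites. In the same bin of the PAR, with median counts of 17 and 18, 34 isolated sites had 67.0% and 57.3% and near sites 66.3% and 57.0%. The PAR gap thus turned to 0.653 and 0.327 points. With 21 to 30 CpG sites in the stretch, 37 isolated MSY sites had 44.6% and 36.1% and near sites 47.9% and 39.4%. With up to 10 CpG sites in the stretch, the 654 isolated MSY sites had 39.6% and 33.1% and the near sites 40.1% and 33.0%. This comparison was added after the data had been seen.

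**Figure D3:**
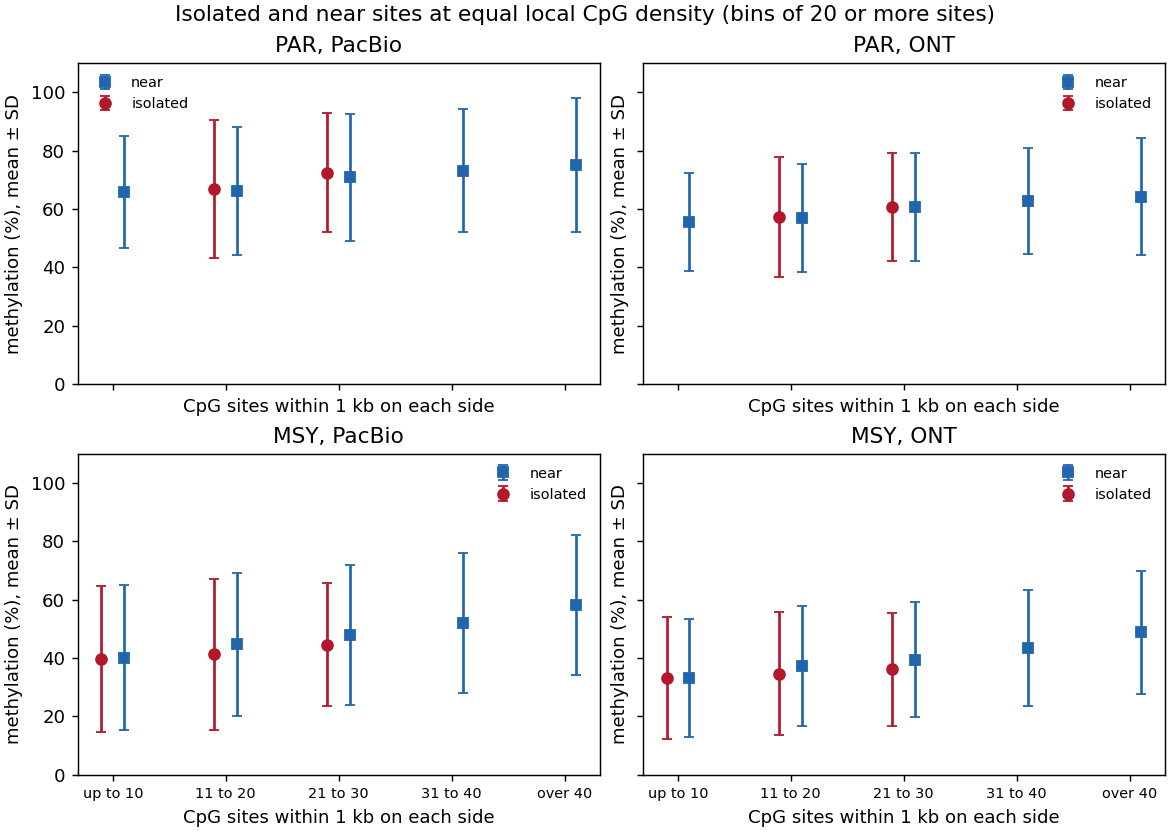
Mean methylation level (y axis, %, error bars SD over sites) is plotted against the number of CpG sites within 1 kb to either side (x axis) for isolated (red circles) and near (blue squares) sites, with bins of under 20 sites left out. At up to 10 CpG sites the MSY classes coincide (39.6% and 40.1% on PacBio), and near sites rise with density to 58.2% in the densest MSY bin.

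Inside windows of 10 kb that held both classes, the mean difference was negative in both regions, while the PAR windows split almost evenly. In the MSY the median difference over 671 windows was -7.35 points on PacBio and -6.09 on ONT, and isolated sites were lower in 419 and 425 windows. In the PAR the median over 65 windows was -0.545 and -2.81 points, with isolated sites lower in 33 and 34 windows. In windows of 5 kb the PAR median turned to 0.457 points on PacBio, with isolated sites higher in 36 of 70 windows, and was -3.14 points on ONT. The mean difference over windows was -4.15 points ± 19.2 (SD over windows) on PacBio and -4.34 ± 17.5 on ONT in the PAR. In the MSY it was -4.76 ± 22.1 and -3.90 ± 18.4, so that on means the regions differed by less than 1 point on either platform, the larger gap being in the MSY on PacBio and in the PAR on ONT.

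Isolated sites were spread unevenly along the MSY. Up to 18 Mb, 1058 isolated sites made 113 per Mb, and after 18 Mb, 147 sites made 18.6 per Mb, while the density of near sites was 4354 and 6736 per Mb. The number of isolated sites per Mb reached 170 in the block from 11 to 12 Mb and 179 in the block from 14 to 15 Mb. In the PAR it lay between 9 and 22 per Mb. Up to 18 Mb, isolated sites had 39.4% ± 24.8 on PacBio and 32.6% ± 20.3 on ONT and differed from near sites by -8.45 and -7.22 points. After 18 Mb they had 47.7% ± 27.5 and 42.6% ± 23.4, and their difference from near sites was -1.63 points on PacBio and 1.69 points on ONT. These 147 sites include 16 of a highly methylated group of 28 sites with identical spacing, described below, and without these 16 the difference was -6.34 and -1.46 points. Without the 72 of them in any group of identical spacing, the remaining 75 sites differed from near sites by -12.5 and -8.36 points. The same omission up to 18 Mb left 971 sites at -9.13 and -7.84 points. Here and in the blocks below, only isolated sites were left out. All near sites were kept, and repeated sequence among them was not sought. The split at 18 Mb and these omissions were set after the data had been seen.

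Over the 18 MSY blocks, isolated sites were lower than near sites on both platforms in 13 and higher on both in 4. Their largest excess was in the block from 22 to 23 Mb, with 54.7% on PacBio and 50.9% on ONT over 19 sites, against 48.8% and 40.2% for near sites. Of these 19, 10 belong to groups of identical spacing, and without them the excess was 0.412 points on PacBio and 4.44 points on ONT. In the block just before it, the same omission raised the excess from 5.57 and 10.6 points to 10.2 and 14.6 points over 4 remaining sites. In the block just after it, the difference turned to -5.79 and -3.08 points over 8 sites. In the block after that, it turned to -13.1 and -13.04 points over 5 sites. In the last block, from 25 Mb to the end of the region, isolated sites were lower than near sites, with 36.5% and 33.4% over 24 isolated sites. In the PAR, isolated sites were lower in 6 of 7 blocks on both platforms. The exception was the block from 1 to 2 Mb, in which 9 isolated sites had 86.9% and 77.4% and near sites 76.0% and 65.6%. The number of PAR isolated sites per block, 4 to 22, limits these block means.

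**Figure D4:**
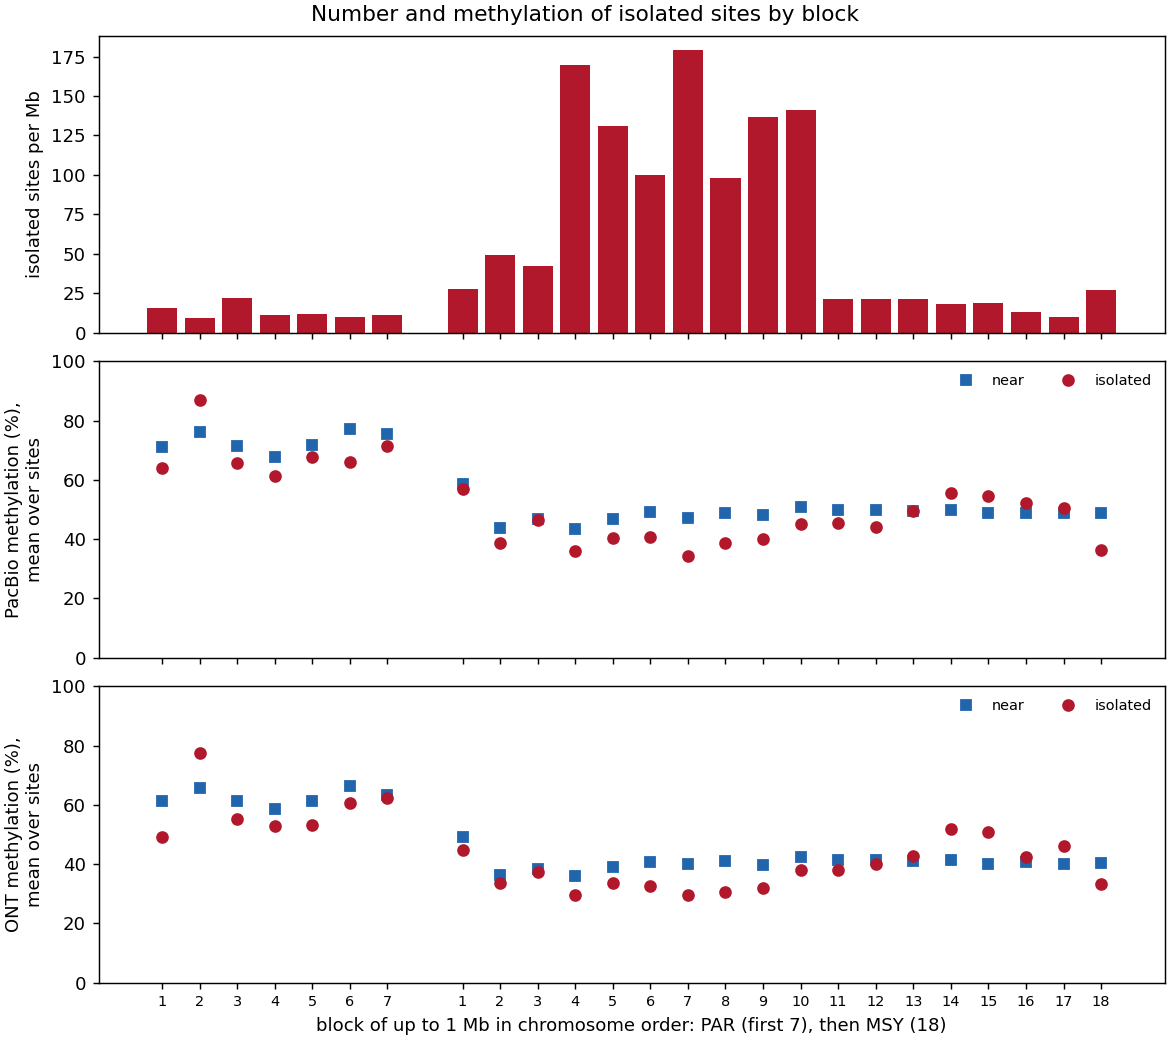
The number of isolated sites per Mb (top) and the mean methylation level of isolated (red circles) and near (blue squares) sites on PacBio (middle) and ONT (bottom) are plotted by block of up to 1 Mb in chromosome order, PAR first and then MSY. Isolated sites reach 179 per Mb in the MSY, and the red points lie under the blue ones in 13 of 18 MSY blocks and in 6 of 7 PAR blocks on both platforms.

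Some isolated MSY sites were set apart by identical spacing. Sites were grouped when they had the same pair of distances to both neighbouring CpG sites, in the same or mirrored order and exact to the base, as copies of a repeated sequence would. Groups were formed within each region. No isolated PAR site shared its pair with another PAR site, while 159 MSY sites (13.2%) fell into 57 groups, of which 45 held 2 sites. The SD of the level within groups was 10.6 points on PacBio and 9.98 on ONT, against 27.6 and 23.9 over the grouped sites. In groups of 2, the sites differed by a median of 8.50 points on PacBio and 6.785 on ONT, and by up to 66.8 and 62.7 points. The group of 2 at 16883661 and 16883962 consists of adjacent CpG sites that share their gap of 301 bp, so 1 of its distances matches by construction. The groups spread far, since 27 of them extended over more than 1 Mb. A pair of distances can also match without a shared sequence, and no sequence was available here to check it. Requiring the next distance on each side as well, a rule added after seeing the data, left 96 sites in 36 groups with an SD within groups of 7.75 and 7.28 points. With distances allowed to differ by up to 2 bp, 462 MSY sites fell into groups. Their SD within groups was 19.6 and 16.2 points, against 25.9 and 22.2 over these grouped sites. Under that rule 7 PAR sites also fell into 3 groups. Whether reads of one copy were aligned to another was not tested, and such reads would also make copies alike.

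The largest group was highly methylated between sparsely methylated neighbours. It held 28 MSY sites with neighbours 301 and 334 bp away, from position 9012490 to 25764097, 14 with the shorter distance on the left and 14 on the right. Their mean was 85.4% ± 5.32 (SD over 28 sites) on PacBio, from 71.6% to 90.4%, and 71.0% ± 6.23 on ONT, from 60.0% to 84.3%. Every one of them thus exceeded the mean of the isolated MSY sites on both platforms. The neighbouring CpG at 301 bp had 14.1% ± 9.39 on PacBio and 9.55% ± 5.70 on ONT over the 28 sites. The neighbour at 334 bp had 33.2% ± 12.7 and 20.05% ± 5.63. The highest value of any neighbour was 55.5% on PacBio and 33.3% on ONT, so the isolated sites and their flanks did not overlap on either platform. Of the 28 sites, 18 also shared the next distances on both sides, with 86.0% ± 4.14 and 70.5% ± 6.68.

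Other groups stood at other levels. The 8 MSY sites with distances of 356 and 858 bp had 71.8% ± 13.2 on PacBio and 68.0% ± 9.83 on ONT. In contrast, 5 sites with 314 and 406 bp had 18.9% ± 12.02 and 27.9% ± 6.10, and 4 sites with 346 and 429 bp had 9.30% ± 4.42 and 18.7% ± 5.55. The ONT ranges of these groups, 52.6% to 79.5%, 21.1% to 35.6% and 14.4% to 26.9%, separated the group of 8 from both others, while the latter overlapped. With each group counted as 1 value, the MSY gap between isolated and near sites was -9.70 points on PacBio and -7.97 on ONT. Near sites were not grouped for this.

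**Figure D5:**
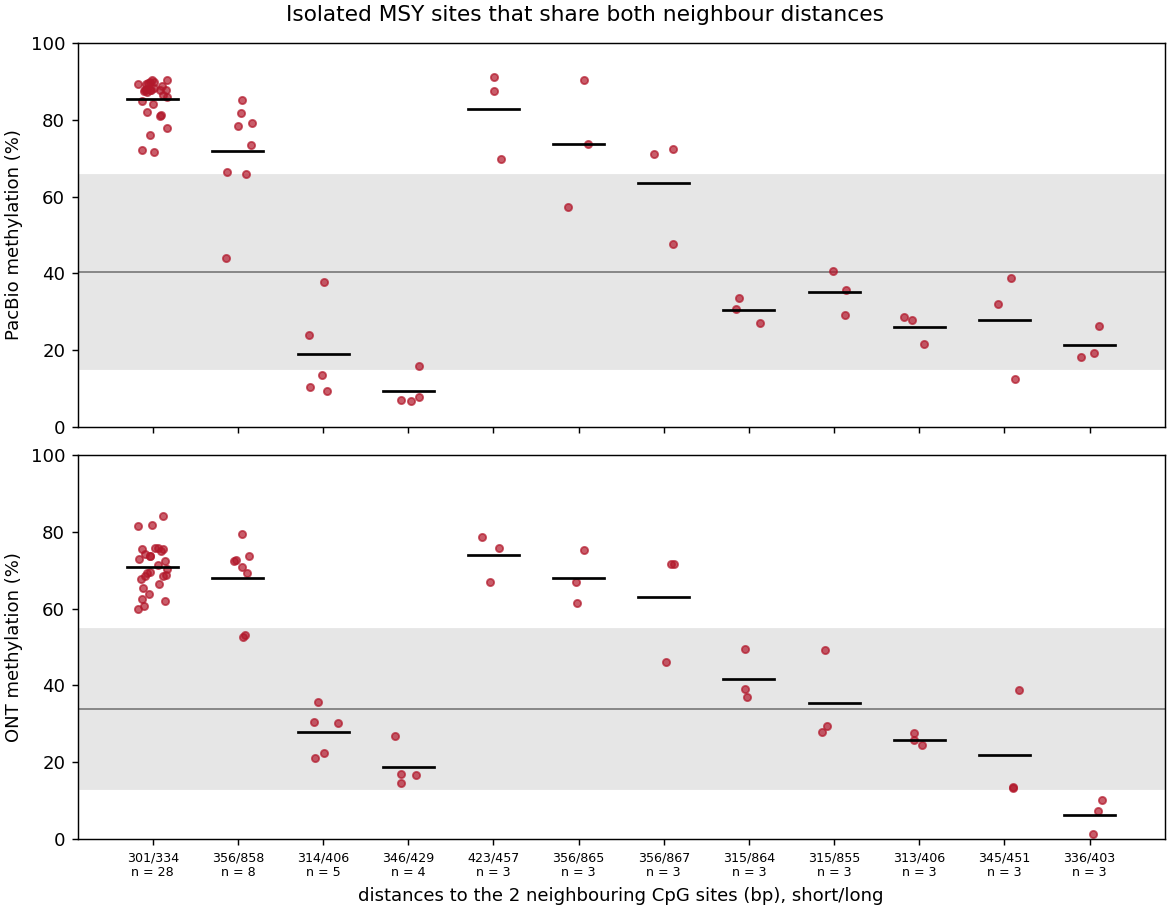
Methylation level (y axis, %) of the isolated MSY sites in groups of 3 or more that share both neighbour distances (x axis, short and long distance in bp) on PacBio (top) and ONT (bottom), with black bars at group means. The grey line and band are the mean ± SD of all 1205 isolated MSY sites (40.4% ± 25.3 and 33.8% ± 20.96), and the 28 sites of the 301/334 group lie between 60.0% and 84.3% on ONT.

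The correlation of a site with its neighbours was higher in the PAR than in the MSY, for isolated and for near sites. Against the mean of both flanking CpG sites, Pearson's r over sites was 0.483 on PacBio and 0.405 on ONT in the PAR (78 sites) and 0.126 and 0.0760 in the MSY (1205 sites). Flanking sites share reads and depth with the isolated site, and these values describe this chromosome of 1 animal. Isolated MSY sites differed from their flanks by -2.73 points on PacBio and -2.09 points on ONT on average, with an SD of 29.5 and 25.1 points over sites. For near sites against their nearest CpG, r was 0.513 and 0.530 in the PAR and 0.278 and 0.290 in the MSY. Near MSY sites differed from their nearest CpG by -4.83 and -4.88 points.

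The platforms ranked isolated sites similarly, and PacBio levels were generally higher. Spearman's rank correlation between the platforms was 0.729 in the PAR and 0.848 in the MSY, and 0.802 and 0.827 over the near sites. Pearson's r between the platforms was 0.766 over the 78 PAR sites and 0.852 over the 1205 MSY sites, and 0.853 and 0.825 over the near sites of the PAR and MSY. PacBio exceeded ONT by 10.1 ± 14.1 points in the PAR and by 6.57 ± 13.3 points in the MSY, and by 10.5 and 8.25 points at near sites. The platforms were more than 30 points apart at 7 isolated PAR sites (8.97%) and 61 isolated MSY sites (5.06%), against 4.50% and 6.25% of near sites.

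On ONT, where each strand was recorded, the 2 strands of a CpG could be compared by Fisher's exact test. Strands were called different at a Benjamini-Hochberg adjusted p under 0.05 and a difference of 20 points or more, which 9.09% of all CpG sites of the chromosome met. In the PAR, 18 of 78 isolated sites (23.1%) met it, against 16.8% of near and 16.1% of all PAR sites. In the MSY, 33 of 1205 isolated sites (2.74%) met it, against 3.88% of near sites. The plus strand was the higher at 8 and the minus strand at 10 of the PAR sites. The test has more power in the PAR, where 86 calls were the median per strand, than in the MSY, where 47 and 48 were. The shares of the regions are therefore not compared. The test treats reads as independent and says nothing about other animals.

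The widest strand differences among isolated PAR sites were at neighbouring positions in STS, the gene of steroid sulfatase, which removes sulfate from steroid hormones. At chrY:4733737-4733738 the plus strand had 87.8% and the minus strand 6.90% (adjusted p = 2.55e-19, Fisher's exact test), while PacBio gave 94.2%. At chrY:4734162-4734163, 425 bp on, they had 89.5% and 17.7% (adjusted p = 4.83e-16, Fisher's exact test), and PacBio gave 94.5%. Among isolated MSY sites the widest was at chrY:16651104-16651105, outside annotated genes, with 5.88% on the plus and 60.0% on the minus strand (adjusted p = 7.19e-05, Fisher's exact test). These sites were picked for their difference, and whether it belongs to the DNA or to the base calling was not tested.

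The most isolated sites differed widely in level. In the MSY, the CpG at chrY:25884037-25884038, 982 and 925 bp from its neighbours and outside annotated genes, had 12.8% on PacBio (46 reads) and 7.41% on ONT (108 calls, 95% Wilson interval 3.80 to 13.9). The CpG at chrY:12666805-12666806, with 1042 and 838 bp, had 17.6% on PacBio and 53.8% on ONT (93 calls, 43.7 to 63.5), so the platforms disagreed beyond counting error. The CpG at chrY:13017679-13017680, inside a TSPY1 pseudogene, had 12.1% and 10.98%. The CpG at chrY:11634032-11634033 had 45.1% and 33.7%. The CpG at chrY:14257608-14257609 had 13.2% and 26.3%, with 162 PacBio reads against a median of 40 at isolated MSY sites.

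The 5 most isolated PAR sites ran from 32.3% to 87.7% on ONT, and 1 of them was among the 3 highest PAR sites on that platform. In XG, which encodes a blood group antigen of the red cell surface, the CpG at chrY:1389061-1389062, 673 and 734 bp from its neighbours, had 89.2% on PacBio and 87.7% on ONT (179 calls, 82.1 to 91.7). In ARSD, an arylsulfatase gene, the CpG at chrY:1437015-1437016 had 96.2% and 75%. The intergenic CpG at chrY:6582500-6582501 had 86.8% and 51.8%, with 65.0% on the plus and 39.5% on the minus strand. In NLGN4X, a gene of a synaptic adhesion protein, the CpG at chrY:3825019-3825020 had the longest free span of the PAR, with neighbours 488 and 2372 bp away, and levels of 48.0% and 46.8%. Its strands had 29.3% and 79.6% on ONT. The intergenic CpG at chrY:4445371-4445372 had 35.7% and 32.3%.

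The extremes on ONT, described here without a test, were as follows. The lowest MSY site, chrY:11246728-11246729, had 0 methylated calls of 115, which allows a level of up to 2.61% when the limit is set at 3 counts and up to 3.23% by the 95% Wilson interval. Its level was 4.10% on PacBio. The next lowest, at 16195034, had 0.893% on ONT and 5% on PacBio. The sites at 12249726 and 16362567 tied at 0.917% on ONT and had 21% and 33% on PacBio. The highest MSY sites, at 12928259, 17033526 and 22086506, had 85.9%, 85.6% and 84.5% on ONT and 70.6%, 49.5% and 75.1% on PacBio. The lowest PAR sites were at 2810065, at 896093 within ASMTL, and at 2544921, with 14.2%, 15.9% and 22.3% on ONT and 25.6%, 29.5% and 20.9% on PacBio. The highest were at 1662129, at 1389061 in XG and at 2246191, with 89.4%, 87.7% and 87.2%.

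Genes held a part of the isolated sites. The annotation used lists 301 genes on the chromosome, 150 of them pseudogenes and 109 protein-coding. Of the isolated PAR sites, 22 (28.2%) lay inside genes, against 43.7% of near sites. Their means were 79.6% ± 18.3 on PacBio and 60.7% ± 16.7 on ONT, whereas the 56 outside had 64.2% ± 21.8 and 57.6% ± 18.8, so the difference inside minus outside, 15.4 and 3.13 points, depended on the platform. In the MSY, 229 isolated sites (19.004%) lay inside genes, against 14.8% of near sites. Their means were 40.3% ± 24.4 and 34.0% ± 21.4, compared with 40.4% ± 25.5 and 33.8% ± 20.9 outside. The difference in the MSY, -0.106 and 0.150 points, changed sign between the platforms.

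Among the MSY genes with repeated names, the TSPY1 pseudogenes held the most isolated sites and also the most near sites, 6319, against 2503 in ZMYND8 and 461 in HSFY genes. TSPY genes are known as testis-specific multicopy genes of the Y-chromosome. Of 52 annotated TSPY1 genes, 8 held 129 isolated sites with 42.9% ± 22.8 on PacBio and 36.1% ± 20.8 on ONT, against 46.7% and 38.7% at the near sites of all 52. A single TSPY1 pseudogene at chrY:12904335-13502691 held 78 of them. The ZMYND8 genes held 22 isolated sites with 39.7% ± 28.9 and 35.4% ± 25.5, and the HSFY genes, named for a heat shock transcription factor of the Y-chromosome, held 16 with 34.8% ± 22.8 and 31.4% ± 22.6. Of these 16 sites, 7 lie in an HSFY pseudogene inside a TSPY1 pseudogene and are also among the 129. Reads of near-identical copies may have been shared among these genes, so their values are uncertain.

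Isolated sites lay in 9 protein-coding MSY genes. LOC132658999 held 6, with 29.1% ± 16.6 on PacBio and 19.9% ± 8.86 on ONT. EIF1AY, which encodes a translation initiation factor, held 5, with 52.8% ± 30.4 and 41.4% ± 23.2, from 8.70% to 69.9% on ONT. EIF1AY lies inside a TSPY1 pseudogene at chrY:12685832-12734821, so its sites are also counted among the 129 above. RBMY, a gene of an RNA-binding protein of male germ cells, held 2 with 7.41% and 48.9% on ONT. The single isolated site of SRY, the testis-determining gene, had 9.50% and 15.9%, and near sites of SRY had 28.5% and 27.5%. The SHROOM2 site had 95.4% and 74.7%, and 2 HSFY genes had 1 site each, with 14.3% and 12.7% on ONT. The remaining 2 sites lay in different ZNF280B genes, with 25.7% and 76.5% on ONT.

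In the PAR, 14 protein-coding genes held isolated sites. BOS2D held 3, with 68.1% ± 15.6 on PacBio and 53.3% ± 15.2 on ONT. STS held 3, with 87.4% ± 12.04 and 55.3% ± 3.70, and they include both sites of wide strand difference given above. P2RY8, a receptor gene, held 2 with 92.9% ± 2.12 and 60.6% ± 13.2. DHRSX, NLGN4X, PRB3 and ANOS1 each held 2, with ONT means of 69.8%, 56.7%, 57.9% and 69.1%. The single site of ASMTL stood lowest, with 15.9% on ONT against 61.8% at near sites of the gene.

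Within 1 kb of an annotated gene start lay 2.57% of isolated and 2.74% of near MSY sites, and 2.56% of isolated and 1.33% of near PAR sites. The isolated ones were 2 PAR sites, with 86.2% ± 5.52 on PacBio and 68.1% ± 0.739 on ONT, and 31 MSY sites, with 38.0% ± 27.3 and 31.3% ± 20.7. The PAR sites lay 867 bp from the start of SF3A2, with 67.6% on ONT, and 495 bp from that of PRELID1, with 68.6%. The MSY sites ran from 2.53% at an HSFY pseudogene, 249 bp from its start, to 71.4% at a TSPY3 pseudogene. The closest, 74 bp from the start of a ZNF280A pseudogene, had 12.5% on ONT and 6.80% on PacBio. The site 99 bp from a protein-coding HSFY start had 4.35% and 6.90%.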

How the data were processed

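Methylation of genomic DNA from 1 fetal lung was measured in 1 PacBio HiFi and 1 ONT library. For PacBio, the authors aligned reads with pbmm2 and deposited, per CpG site, a modelled methylation percent, a read count and estimated counts of methylated and unmethylated reads from pb-CpG-tools. For ONT, base calling used Dorado and alignment used Winnowmap, and the authors deposited modbam2bed counts of unmethylated, methylated and between-threshold calls per strand, with thresholds of 20 and 80 percent, together with a percent and a score that were used here only to check the layout. The filter between alignment and counting was not given in the sources used here.

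Both ONT strands of a CpG were added, and PacBio and ONT records were joined by position. A minimum of 5 calls was set, which no site failed. Levels were averaged over sites, and values are given ± SD over sites. Sites close together are covered by the same reads, and p-values over sites were therefore not computed. ONT strands were compared at all 372890 sites by two-sided Fisher's exact tests with Benjamini-Hochberg adjustment. The test was checked on simulated data. At planted strand differences of 40 points it recovered 54 of 57 PAR sites but 58 of 111 MSY sites. At 80 points it recovered all 200 planted sites. Genes came from the study's gene list, of which 241 of 301 matched RefSeq by start and end. The median depth over the chromosome was 45 on PacBio and 103 on ONT, and intervals cover counting error only.

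The rule for the members, the lists and the limits were chosen with earlier results of these data known. Named sites were, per region, the 5 with the largest nearest distance, the 3 lowest and 3 highest on ONT with 20 or more calls on each platform, and the protein-coding genes with most isolated sites. Sites with the widest strand differences, the TSPY1, ZMYND8 and HSFY groups and the sites of high depth were chosen after their values were seen. Alternatives covered isolation limit, coverage, summary, depth, strand, gene distance, near class, window and copy rule. Flanking bases and promoter windows were not analysed here. Python 3.11.15, NumPy 2.4.6, pandas 2.3.3, SciPy 1.17.1 and matplotlib 3.10.9 were used.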

Additional observations from a re-analysis of the deposited data

How the results depend on the processing

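With 1 library per platform from 1 animal, no difference carries a biological error, and neither library could be left out. No paired analysis was possible because each platform gave a single library. Of 196 alternative values, 74 moved by more than the SD between the platforms (or, for counts, by over 1.5 times), 10 changed sign and the rest moved less. No PAR or MSY site was 1000 bp from any CpG, so that limit gave no value. The cause of the shifts was not tested. Pairs below are PacBio, then ONT, in percentage points.

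Isolated minus near was, in the PAR, -7.38 and -6.64 with a limit of 200 bp and 17.4 and 8.68 (3 sites) with 500 bp. It was -8.20 and -6.09 with medians, -3.88 and -3.84 with equal blocks, -5.78 and -5.04 without sites within 5 kb of gene starts, and -5.16 on PacBio pooled over calls. It was -9.28 and -9.84 against near sites 2 to 19 bp away, 0.180 and -0.043 against those over 100 and under 300 bp, -3.04 and -3.01 in sparse bins, and 0.653 and 0.327 at 11 to 20 CpG sites within 1 kb. In the MSY it was -10.1 and -8.56 with 200 bp, -10.1 and -8.66 with medians, -4.06 and -2.31 with equal blocks, -30.2 and -27.9 against the closest class and -0.568 and -0.112 against the farther one. It was -3.43 and -2.59 at 11 to 20 CpG sites within 1 kb and -1.63 and 1.69 after 18 Mb. With spacing groups handled among isolated sites only, it was -9.70 and -7.97 with 1 value per group and -10.1 and -8.38 without all groups. With ONT calls between thresholds counted as unmethylated it was -3.49 in the PAR and -4.96 in the MSY, and counted as methylated, -3.90 in the PAR.

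PAR isolated means were 90.7 and 71.5 with 500 bp, and 49.4 on ONT with between-threshold calls unmethylated. MSY means were 47.7 and 42.6 after 18 Mb, and 40.7 on ONT with those calls methylated. PAR minus MSY was 49.1 and 38.0 with 500 bp, 35.6 and 30.7 with medians, 24.4 and 20.5 with equal blocks, 20.9 and 15.9 with MSY after 18 Mb, and 19.5 on ONT with between-threshold calls unmethylated. The difference of differences was 24.5 and 15.6 with 500 bp, 1.90 on PacBio with medians, 2.03 on PacBio pooled, 0.178 and -1.53 with equal blocks, 2.14 and 1.26 away from gene starts, 20.9 and 18.04 against the closest class, 0.748 and 0.068 against the farther one, 4.73 and 3.16 in sparse bins, -3.08 and -6.05 after 18 Mb, 4.62 on PacBio without the largest spacing group, and 5.38 and 4.02 without all of them. Within windows of 5 kb the median was 0.457 in the PAR on PacBio and -6.33 in the MSY on PacBio, and with 50 kb -5.39 and -4.53 in the MSY. Spacing groups with distances within 2 bp took in 462 sites with an SD of 19.6 and 16.2, and with 4 distances 96 sites with 7.75 and 7.28.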

Other observations

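PacBio depth at 12 isolated MSY sites exceeded 2 times the region's median for isolated sites, while ONT depth at these sites was 86 to 162 calls. At 11436775 there were 1654 PacBio reads and 107 ONT calls, and the levels were 91.8% and 47.7%. At 14430183, with 120 reads, PacBio gave 5.10% and ONT 27.9%, and at 11857189, with 104 reads, 9.30% and 34.1%. At 17033526, the MSY site with the second highest level on ONT (85.6%), 117 PacBio reads gave 49.5%. The part of depth in these differences was not tested.

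The 301/334 pair of distances of the largest MSY group occurred at 1 further CpG of the chromosome, in the PAR at 2246191. It had 94.7% on PacBio and 87.2% on ONT (95% Wilson interval 79.0 to 92.5), above the ONT range of the 28 MSY sites. Its depth of 37 PacBio reads was the lowest of the isolated PAR sites, and its 94 ONT calls compare with a PAR median of 170.5 and an MSY median of 94. Its next distances were 34 bp beyond the neighbour at 334 bp and 145 bp beyond the neighbour at 301 bp. The 18 MSY sites that share 4 distances had 58 and 275 bp there, and the MSY site at 18260736 had 34 and 275 bp, so it shared 3 of 4 distances with the PAR site.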
